A study of Homo sapiens with 6 samples.

Results

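The 10 circadian clock genes described here are PER1, PER2, PER3, CRY1, CRY2, BMAL1, NR1D1, NR1D2, DBP and TEF. They were chosen by symbol, and each matched 1 row among the 60605 genes of the count table (BMAL1 is annotated there under an identifier that GENCODE 29 calls ARNTL). Expression was measured by RNA sequencing in UMUC3, an established human bladder cancer cell line, in 6 libraries. In 3 libraries the cells had been infected with TIM-1 in the vector PLVX-IRES-zsgreen, and in 3 with the same vector without TIM-1, called the empty vector or the controls below. TIM-1 is a cell surface receptor encoded by HAVCR1, and all 6 cultures therefore share infection and a green fluorescent marker. The labels name no time of harvest and no step that sets the phase of the clock, and they do not say whether replicates 1 to 3 of a group were separate cultures or clones. The p-values below thus rest on the scatter among 6 libraries and may cover technical variation alone.

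Total gene counts ran from 14312387 to 18605914 per library. HAVCR1 had between 7069 and 11479 counts in the TIM-1 libraries and between 0 and 4 with the empty vector. Of 14 urothelial and epithelial markers 5 passed the filter on low counts, among them KRT8 and KRT18. KRT5, UPK1B, UPK3A, EPCAM and CDH1 were at or near 0 in every library. The values below are in CPM, counts scaled to a common library size. The epithelial list summed to between 333 and 567 CPM, most of it KRT18, which had 272 and 314 CPM in the replicate 1 libraries and 367 to 511 CPM in the other 4. KRT8 ran from 42.9 to 49.95 CPM and was highest in TIM-1 replicate 1. GATA3, which also passed the filter, had 0.65 to 0.93 CPM with TIM-1 and 1.13 to 2.35 CPM with the empty vector. PPARG had 7.52 to 8.42 CPM with TIM-1 and 4.38 to 5.69 CPM with the empty vector. Neither overlapped between the groups, as was so for 11.7% of all genes tested, while KRT8, KRT18 and FOXA1 did overlap. Fibroblast markers summed to 5.67 to 15.9 CPM, and leukocyte and endothelial markers to at most 0.270 CPM, in any library.

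The mammalian clock is a feedback loop of transcription. BMAL1 pairs with CLOCK or NPAS2 and switches on genes that carry E-boxes, among them the PER and CRY genes, whose proteins return to block that pair. A second loop runs through NR1D1 and NR1D2, which encode the REV-ERB nuclear receptors that repress BMAL1 at ROR elements, against the activating ROR receptors. DBP and TEF encode PAR bZIP factors that read out the loop at D-boxes. In a culture whose cells are out of phase with each other, levels are an average over phases.

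Promoter sequence is shown for the 4 genes whose values the results below turn on most, NR1D2, PER2, TEF and BMAL1. It is also shown for PER1, whose window held an E-box and a D-box. The windows come from RefSeq on GRCh38.p14, each with 250 bases before and 50 after an annotated start, and all 10 genes had at least 1 among 15 windows. Motifs were searched on both strands as CACGTG (E-box), TTATGTAA or TTATGCAA (D-box), TAGGTCA or TGGGTCA (ROR element) and TGACGTCA (the cAMP response element). The E-box variant CACGTT was added after the sequences had been seen. None of these motifs contains another. Capitals mark the matches, and stretches covered by an annotated exon of the gene were left out, except at BMAL1, where only the 27 bases around its ROR element are given.
NR1D2, chr3:23945871-23946120, plus strand: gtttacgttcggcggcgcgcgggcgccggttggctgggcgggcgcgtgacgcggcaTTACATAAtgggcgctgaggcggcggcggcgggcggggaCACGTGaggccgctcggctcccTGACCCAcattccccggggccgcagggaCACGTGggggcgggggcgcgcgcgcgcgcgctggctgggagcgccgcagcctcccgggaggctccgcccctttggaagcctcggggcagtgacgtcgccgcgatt
PER2, chr2:238288611-238288860, minus strand: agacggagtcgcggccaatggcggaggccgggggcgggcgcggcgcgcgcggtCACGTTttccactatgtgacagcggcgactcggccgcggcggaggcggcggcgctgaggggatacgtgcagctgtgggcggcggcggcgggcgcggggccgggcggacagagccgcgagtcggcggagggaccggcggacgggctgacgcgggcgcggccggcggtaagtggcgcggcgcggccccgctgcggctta
TEF, chr22:41381692-41381928, plus strand: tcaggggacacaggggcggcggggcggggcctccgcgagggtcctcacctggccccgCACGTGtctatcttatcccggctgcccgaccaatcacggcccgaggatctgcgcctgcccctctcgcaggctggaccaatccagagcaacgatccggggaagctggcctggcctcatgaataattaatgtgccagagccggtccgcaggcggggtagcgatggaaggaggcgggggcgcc
PER1, chr17:8152436-8152654, minus strand: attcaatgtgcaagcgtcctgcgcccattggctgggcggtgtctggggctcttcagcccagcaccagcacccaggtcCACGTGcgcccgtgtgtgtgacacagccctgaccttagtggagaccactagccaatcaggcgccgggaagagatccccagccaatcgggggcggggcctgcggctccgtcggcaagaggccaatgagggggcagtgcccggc
BMAL1, chr11:13277810-13277836, plus strand: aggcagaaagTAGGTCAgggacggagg

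The NR1D2 stretch shown held 2 E-boxes, at -155 and -105 from the annotated start of its window, with a D-box at -194 and a ROR element at -133. PER2 held the E-box variant at -197 and none of the other motifs. TEF had an E-box in each of its windows, at -193 in the one shown and at -195 in the other. PER1 had an E-box at -173 and a D-box at -30, of which the latter lies outside the stretch printed. The ROR element of BMAL1 began 31 bases after the start of the window that holds it. Another BMAL1 window, with chr11:13276402-13276651 before its start, held none of the motifs. The same was true of another NR1D2 window, with chr3:23945036-23945259 before its start. Both lie nearer the first base of the gene than the windows with matches. Among the genes whose sequence is not shown, PER3 had a D-box at -177 and CRY2 a ROR element at -65. CRY2, CRY1 and NR1D1 had the E-box variant, at -188, -89 and -168. E-boxes were present in 4 of the 15 windows, against 7.256% of all 35116 windows, D-boxes in 3 against 1.714%, and ROR elements in 3 against 5.687%. The E-box variant was present in 4 windows against 5.342%, and the cAMP response element in 0 against 1.848%. A match is a string of letters and not evidence of binding in these cells.

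All 10 genes passed the filter on low counts, and their levels were compared per exon length as TPM, counts per base of exon scaled to the same total in each library. NR1D2 stood highest at 26.1 ± 3.41 TPM, next to CRY1 at 25.6 ± 2.38 TPM (SD, n = 6 libraries each). CRY2, with 13.8 ± 1.35 TPM, and TEF, with 12.9 ± 2.09 TPM, followed (SD, n = 6). PER2, PER3, NR1D1 and BMAL1 lay between 5.20 and 7.39 TPM on average. PER1 had 3.93 ± 0.60 TPM and DBP 2.76 ± 0.400 TPM (SD, n = 6). The ranges of neighbours in this order overlapped, apart from those of CRY1 and CRY2 and of TEF and PER2. The order depends on the length used. With the principal transcript in place of all annotated exons, an alternative chosen after seeing the data, CRY1 stood first at 24.99 TPM and NR1D2 second at 18.1 TPM. DBP, whose annotated exons span 6544 bases against 2229 in its principal transcript, then had 5.10 TPM and rank 7 instead of 10.

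With TIM-1, no clock gene passed the test in either direction. Of the 10, 2 had a positive and 8 a negative log2 fold change, and no gene had all 3 TIM-1 values above or below all 3 empty-vector values. The edgeR quasi-likelihood test that treats the libraries as unpaired called 0.0138% of the 14479 genes tested, namely 2 genes, and 5.49% had an unadjusted p under 0.05, against 0 of the 10 clock genes. With the replicate number as a block it called 5.01% of all genes and again 0 of the 10, while 18.3% of all genes and 2 of the 10, BMAL1 and TEF, had an unadjusted p under 0.05. Groups did not overlap for 11.7% of all genes. The median log2 fold change of the 10 was -0.10 without the block, against -0.00075 over all genes tested. In bulk RNA, fewer cells in a given state and less RNA per cell cannot be told apart.

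**Figure D1:**
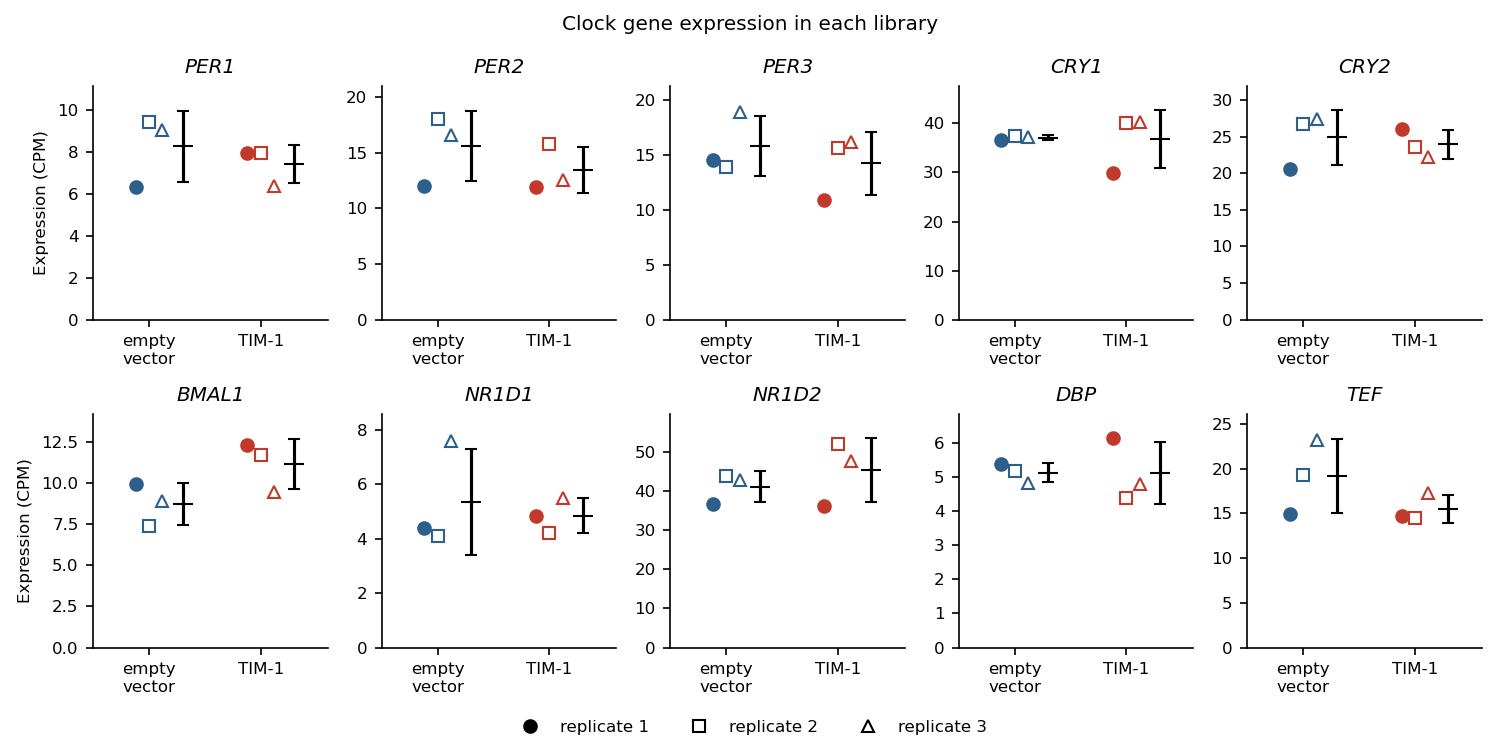
Expression of the 10 clock genes in CPM (vertical axes, starting at 0) in the 3 empty-vector and the 3 TIM-1 libraries. Symbols give the replicate number, filled for replicate 1, and the bar beside each group is its mean with the SD (n = 3). The groups overlap for every gene, and the filled circles of PER2, CRY1 and NR1D2 lie below all other symbols of their group.

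BMAL1 (ENSG00000133794, chromosome 11 from 13276652 to 13387266, plus strand), the activator of the loop, had the largest positive value. Its level was 12.3, 11.7 and 9.45 CPM in TIM-1 replicates 1, 2 and 3, and 9.90, 7.36 and 8.87 CPM in the empty-vector replicates. The TIM-1 library was the higher in each of the 3 pairs, a pattern found in 20.1% of all genes (39.2% were higher or lower in all 3), but the groups overlapped through TIM-1 replicate 3 and empty-vector replicate 1. Without the block the log2 fold change was 0.35 (95% interval -0.04 to 0.74, SE 0.17), and edgeR gave an adjusted p of 0.891. With the block it was 0.35 (SE 0.14, 95% interval 0.06 to 0.64), with an unadjusted edgeR p of 0.0180 and an adjusted p of 0.155.

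The PER genes encode the repressors whose transcripts cycle in a running clock. PER2 (ENSG00000132326, chromosome 2 from 238244038 to 238290102, minus strand) had 11.9, 15.8 and 12.5 CPM in TIM-1 replicates 1, 2 and 3, where the empty-vector libraries had 12.0, 18.1 and 16.6 CPM. The TIM-1 value was lower in each pair, by little in replicate 1 and by more in replicates 2 and 3, and 19.1% of all genes were lower in all 3 pairs. The log2 fold change of PER2 was -0.21 with the block (SE 0.12, 95% interval -0.46 to 0.04, edgeR adjusted p = 0.365). PER1 (ENSG00000179094, chromosome 17 from 8140472 to 8156506, minus strand) had 7.93, 7.92 and 6.37 CPM with TIM-1, against 6.33, 9.40 and 9.05 CPM with the empty vector. Here replicate 1 was higher with TIM-1 and replicates 2 and 3 were lower. PER3 (ENSG00000049246, chromosome 1 from 7784320 to 7845177, plus strand) ranged from 10.9 to 16.1 CPM with TIM-1 and from 13.9 to 18.9 CPM with the empty vector. The blocked log2 fold changes of PER1 and PER3 were -0.16 and -0.15, and their 95% intervals ran from -0.49 to 0.17 and from -0.40 to 0.10.

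The cryptochromes CRY1 and CRY2, the repressor partners of the PER proteins, had blocked intervals narrower than those of the PER genes. CRY1 (ENSG00000008405, chromosome 12 from 106991364 to 107093829, minus strand) had 29.9, 40.0 and 40.3 CPM with TIM-1, against 36.6, 37.4 and 37.3 CPM with the empty vector. Its empty-vector values lay within 1 CPM of each other, while TIM-1 replicate 1 stood below the other 5 libraries. The blocked log2 fold change was -0.02 (95% interval -0.20 to 0.16). CRY2 (ENSG00000121671, chromosome 11 from 45847118 to 45883248, plus strand) had 26.0, 23.5 and 22.2 CPM with TIM-1, against 20.6, 26.7 and 27.3 CPM with the empty vector. TIM-1 replicate 1 was its highest TIM-1 value and empty-vector replicate 1 its lowest value, and the blocked log2 fold change was -0.06 (95% interval -0.27 to 0.16).

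Of the REV-ERB genes, NR1D2 (ENSG00000174738, chromosome 3 from 23945260 to 23980618, plus strand) had 36.3, 52.1 and 47.5 CPM with TIM-1, against 36.6, 43.8 and 42.9 CPM in the controls. Replicate 1 was the lowest library in both groups, at nearly the same level, and the TIM-1 value was higher in replicates 2 and 3 only. The blocked log2 fold change was 0.13 (SE 0.08, 95% interval -0.03 to 0.30, edgeR adjusted p = 0.411). NR1D1 (ENSG00000126368, chromosome 17 from 40092787 to 40100725, minus strand) had 70, 68 and 102 counts with TIM-1, against 70, 66 and 126 in the controls. This gave 4.83, 4.21 and 5.51 CPM and 4.38, 4.08 and 7.60 CPM, with replicate 3 highest in both groups. Its blocked log2 fold change was -0.12 with a 95% interval from -0.51 to 0.26, the widest interval of the 10 genes.

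DBP and TEF encode the output factors. DBP (ENSG00000105516, chromosome 19 from 48630030 to 48637438, minus strand) had 6.14, 4.39 and 4.80 CPM with TIM-1, against 5.39, 5.19 and 4.83 CPM in the controls, and a blocked log2 fold change of -0.02 (95% interval -0.40 to 0.36). TEF (ENSG00000167074, chromosome 22 from 41367333 to 41399326, plus strand) had 14.8, 14.5 and 17.3 CPM with TIM-1, against 15.0, 19.4 and 23.2 CPM in the controls. TEF was lower with TIM-1 in each pair, by a small margin in replicate 1, and the groups overlapped only through empty-vector replicate 1. Its blocked log2 fold change was -0.30 (SE 0.12, 95% interval -0.53 to -0.06), with an unadjusted edgeR p of 0.0135 and an adjusted p of 0.134. Without the replicate 1 pair, TEF was the 1 clock gene that passed the blocked test, at -0.42 (edgeR adjusted p = 0.0361), where 5.76% of all genes passed and 2.73% were lower. That fit has 1 residual degree of freedom. Without the replicate 2 pair TEF was at -0.24 (edgeR adjusted p = 0.604) and without the replicate 3 pair at -0.23 (0.508). In the unpaired fit it was at -0.14 without empty-vector replicate 3 and at -0.46 without empty-vector replicate 1, against -0.30 with all libraries.

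**Figure D2:**
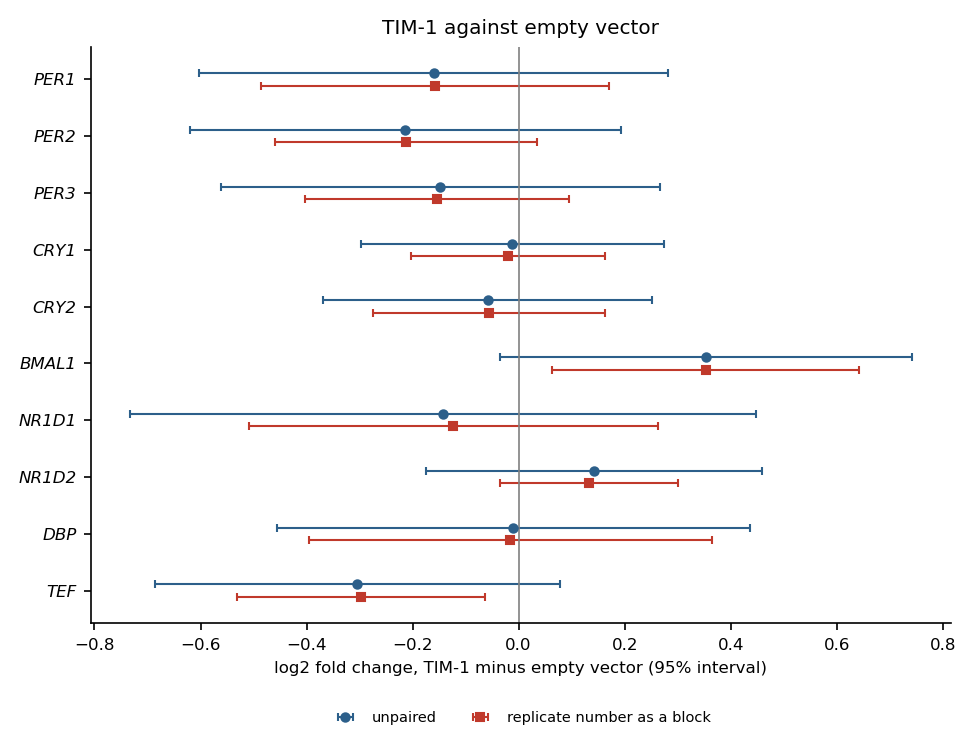
Log2 fold change of each clock gene, TIM-1 minus empty vector (horizontal axis), with its 95% interval from edgeR, for libraries taken as unpaired (blue circles) and with the replicate number as a block (red squares). The blocked intervals of BMAL1 (0.06 to 0.64) and TEF (-0.53 to -0.06) lie to one side of 0, and no gene passed after adjustment over all genes.

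Replicate 1 differed from replicates 2 and 3 in 2 of the 10 clock genes, NR1D2 and PER2, and both were lower in replicate 1. With the group as a term, this contrast called 23.6% of all genes, 12% lower and 11.6% higher, so 2 of 10 lower and 0 of 10 higher is near the background. The median log2 difference of the 10 was -0.22, against -0.01 over all genes. The contrast was chosen with earlier results of these data known, and the labels do not say what the numbers mark. Between replicates 2 and 3, 0.0414% of all genes and 0 of the 10 clock genes passed.

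NR1D2 was lower in replicate 1 by a log2 difference of -0.35 (SE 0.09, 95% interval -0.54 to -0.16, edgeR adjusted p = 0.00616). In CPM the mean was 36.4 over the 2 replicate 1 libraries and 46.6 ± 4.20 (SD, n = 4) over the other 4, with no overlap. Within the TIM-1 libraries the difference was -0.46 (edgeR adjusted p = 0.0264), and within the empty-vector libraries it was -0.24 (edgeR adjusted p = 0.211). The contrast within TIM-1 called 2 of the 10, NR1D2 and CRY1, both lower, against 9.57% of all genes, 4.7% lower. Within the empty vector it called 0 of the 10 against 11.2% of all genes. In each group replicate 1 is a single library here. The spread was pooled from replicates 2 and 3 of both groups, with 2 residual degrees of freedom, and the single library is assumed to vary like them. It was also called against replicate 2 alone (-0.39, edgeR adjusted p = 0.00477) and against replicate 3 alone (-0.31, edgeR adjusted p = 0.0236), contrasts that called 18.2% and 23.6% of all genes and 2 and 3 of the 10. Leaving out TIM-1 replicate 1 ended the call (-0.24, edgeR adjusted p = 0.212), and it held when any 1 of the other 5 libraries was left out.

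PER2 was lower by -0.39 (SE 0.14, 95% interval -0.67 to -0.10, edgeR adjusted p = 0.0423), with a mean of 12.0 CPM in replicate 1 and 15.7 ± 2.34 CPM (SD, n = 4) in the others. Replicate 1 held the 2 lowest of the 6 values, although TIM-1 replicate 3, at 12.5 CPM, was close to them. This call was near the threshold. It was lost with a larger difference of -0.53 without TIM-1 replicate 1 (edgeR adjusted p = 0.0837), and with -0.34 without either TIM-1 replicate 2 (0.122) or empty-vector replicate 2 (0.109). Without empty-vector replicate 1 the difference itself was smaller, at -0.24 (edgeR adjusted p = 0.480). DESeq2 gave PER2 an adjusted p of 0.0950 and NR1D2 one of 0.0109, and so called 1 of the 10, against 18.4% of all genes. Against replicate 3 alone PER2 was at -0.27 (edgeR adjusted p = 0.205).

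PER3, CRY1 and TEF had unadjusted p under 0.05 and did not pass after adjustment, so 5 of the 10 were under 0.05 before it, against 35.9% of all genes. Their log2 differences were -0.35, -0.22 and -0.31, with edgeR adjusted p of 0.0760, 0.109 and 0.0897. Single libraries moved these values both ways. PER3 was at -0.18 without TIM-1 replicate 1 (edgeR adjusted p = 0.599) and at -0.47 without empty-vector replicate 2 (0.0162). TEF was at -0.11 without empty-vector replicate 1 (edgeR adjusted p = 0.768) and at -0.39 without TIM-1 replicate 2 (0.0476), and at -0.51 without TIM-1 replicate 1 (0.0782). CRY1 was at -0.03 without TIM-1 replicate 1 (edgeR adjusted p = 0.908), at -0.42 without empty-vector replicate 1 (0.0450) and at -0.25 without empty-vector replicate 3 (0.0413). Correcting counts for each gene's GC content called 4 of the 10 lower, adding CRY1 (-0.24) and TEF (-0.31), where it called 14.8% of all genes lower.

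BMAL1 and DBP were the 2 genes with a positive difference. BMAL1 stood at 0.25 (95% interval -0.06 to 0.56, edgeR adjusted p = 0.237) and DBP at 0.26 (95% interval -0.13 to 0.65, edgeR adjusted p = 0.346). Both DBP values of replicate 1, 6.14 and 5.39 CPM, lay above the 4 others, which ran from 4.39 to 5.19 CPM. Replicate 1 did not overlap with replicates 2 and 3 for 4 of the 10 genes, namely PER2, CRY1, NR1D2 and DBP, and for 39.7% of all genes (20.4% below and 19.2% above all others). PER1, CRY2 and NR1D1 had differences of -0.19, -0.10 and -0.22 with intervals that include 0.

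**Figure D3:**
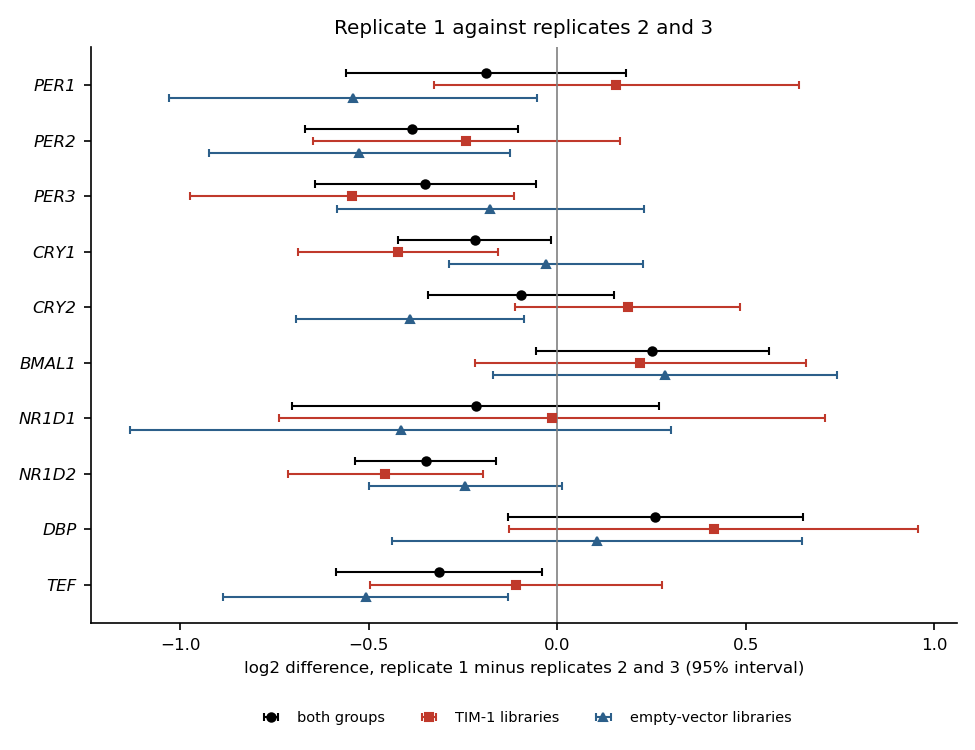
Log2 difference of each clock gene, replicate 1 minus replicates 2 and 3 (horizontal axis), with its 95% interval from edgeR, over both groups (black circles), within the TIM-1 libraries (red squares) and within the empty-vector libraries (blue triangles). NR1D2 lies left of 0 over both groups (-0.35), and CRY2 lies at 0.19 in the TIM-1 libraries and at -0.39 in the empty-vector libraries.

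For some clock genes the replicate 1 difference took opposite signs in the groups. CRY2 was higher in replicate 1 among the TIM-1 libraries, by 0.19, and lower among the empty-vector libraries, at -0.39. The interaction, the TIM-1 difference minus the empty-vector one, was 0.58 (SE 0.20, 95% interval 0.15 to 1.00) with an unadjusted edgeR p of 0.0109 and an adjusted p of 0.877. PER1 had the same signs, at 0.16 and -0.54, and an interaction of 0.70 in edgeR (unadjusted p = 0.0467, adjusted p = 0.877). CRY1 was at -0.42 among the TIM-1 libraries and at -0.03 among the empty-vector ones, with an interaction of -0.39 in edgeR (unadjusted p = 0.0377, adjusted p = 0.877). An unadjusted p under 0.05 was thus reached by 3 of the 10 genes and by 5.38% of all genes. After adjustment the edgeR test called 0 of the 14479 genes, so none of these differences between the groups passed.

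In NR1D1 replicate 3 was the highest library of each group. Replicate 2 minus replicate 3 was -0.65 for NR1D1 (SE 0.23, 95% interval -1.12 to -0.18), with an unadjusted edgeR p of 0.00729 and an adjusted p of 0.573. With 66 to 126 counts per library, counting error alone gave NR1D1 a coefficient of variation of 10.9%. Over the 6 libraries the ratio of the highest to the lowest CPM was 1.86 for NR1D1, the largest of the 10, and 1.33 for CRY2, the smallest. The SD of log2 CPM ran from 0.16 for CRY1 to 0.33 for NR1D1, which put them at the percentiles 37.9 and 75.2 of all genes tested.

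Some counts may gain or lose reads where exons overlap those of neighbouring genes, since no source used here gives the strand setting of the counts. The exons of NR1D1 share 263 bases with THRA, a thyroid hormone receptor gene on the opposite strand, or 9.5% of the NR1D1 exon length. DBP shares 661 bases with SPHK2 (10.1%) and PER3 shares 868 bases with UTS2 (10.7%), both on the opposite strand. THRA had 2370 counts over the 6 libraries against 502 for NR1D1, and SPHK2 had 1323 against 499 for DBP, while UTS2 had 1. The part of these overlaps in the values was not tested.

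Other genes of the clock were read from lists by role. RORA, whose receptor activates BMAL1 at ROR elements, was the 1 activator of 4 tested that rose with TIM-1, and only with the block. Its level was 7.31, 4.39 and 4.32 CPM with TIM-1, against 3.95, 3.83 and 1.99 CPM in the controls, with no overlap between the groups. RORA rose by 0.72 on the log2 scale with the block (SE 0.22, edgeR adjusted p = 0.0382), and its value without the block was 0.71 (adjusted p = 0.891). A block of replicate 1 against the other replicates, which called 3.52% of all genes and 0 of the 10, ended the RORA call (0.70, edgeR adjusted p = 0.0842). CLOCK, NPAS2 and BMAL2 did not pass.

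Of 5 further repressors, 2 rose with TIM-1 in the blocked test. BHLHE40, an E-box repressor, had 157, 95.7 and 90.8 CPM with TIM-1, against 147, 65.2 and 65.8 CPM in the controls. It rose by 0.36 on the log2 scale with the block (SE 0.07, edgeR adjusted p = 0.00160), against an adjusted p of 0.941 without it. Its paralogue BHLHE41 rose by 0.42 (edgeR adjusted p = 0.0121 blocked, 0.937 unpaired). Replicate 1 was the high library for both in each group. Blocked calls were made for 0 of the 2 PAR bZIP and opposing factors. In the list of kinases and ubiquitin ligases of PER and CRY, which also holds the deubiquitinase USP7, 0 of 10 were called. Of 8 clock output genes 1 was called, PPARA (0.43, edgeR adjusted p = 0.0417 blocked, 0.885 unpaired). The replicate 1 block also ended the PPARA call (edgeR adjusted p = 0.0683). Over all genes the block called 3.22% higher and 1.79% lower.

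In replicate 1 against replicates 2 and 3, several of these genes, among them BHLHE41, BHLHE40, BMAL2 and HLF, had larger differences than any of the 10. BHLHE41 and BHLHE40 were higher in replicate 1 by 1.27 and 0.96 (edgeR adjusted p = 2.45e-09 and 3.98e-09), and TIMELESS was lower by -0.32 (edgeR adjusted p = 0.000983). Of the activators, BMAL2 differed by -0.59 and CLOCK by -0.35 (edgeR adjusted p = 5.66e-07 and 0.0131). HLF, the third PAR bZIP gene, was at -1.83 (SE 0.50, edgeR adjusted p = 0.00905) on 7 and 4 counts in replicate 1 against 20 to 25 in the other libraries. NFIL3, which opposes the PAR bZIP factors at D-boxes, was higher by 0.38 (edgeR adjusted p = 0.0114).

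Over all genes this contrast called 11.6% higher and 12% lower, which is the baseline for the counts of each list. Among the clock output genes 4 of 8 were lower in replicate 1 and 0 higher, with a median of -0.23. GPCPD1, CDKN1A and NOCT had the smallest p, with differences of -0.58, -0.48 and -0.79. Of the 10 genes tested in the kinase and ubiquitin ligase list 3 were higher and 0 lower, with a median of 0.13. These were FBXW11 (0.30), CSNK2A1 (0.19) and CSNK2A2 (0.22). The PER genes are also known to respond directly to glucocorticoids, serum and cAMP, and genes induced by these cues were read beside them. Of 8 immediate early genes 4 were lower in replicate 1 and 0 higher, with a median of -0.97. FOSB, FOS and EGR1 had differences of -2.99, -1.82 and -1.18. NR4A2 (-0.75), NR4A1 (-0.39), CREM (-0.10) and SIK1 (0.31) did not pass. The immediate early list summed to 398 and 434 CPM in the replicate 1 libraries and to between 1076 and 1215 CPM in the others. Most of this sum was EGR1 in each library. Of 6 glucocorticoid-induced genes tested 3 were lower and 0 higher, with a median of -0.38, namely SGK1 (-1.63), DUSP1 (-0.84) and FKBP5 (-0.45). KLF9 (0.49), TSC22D3 (-0.15) and CEBPD (-0.31) did not pass. The part of these cues in the PER2 and NR1D2 values was not tested.

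**Figure D4:**
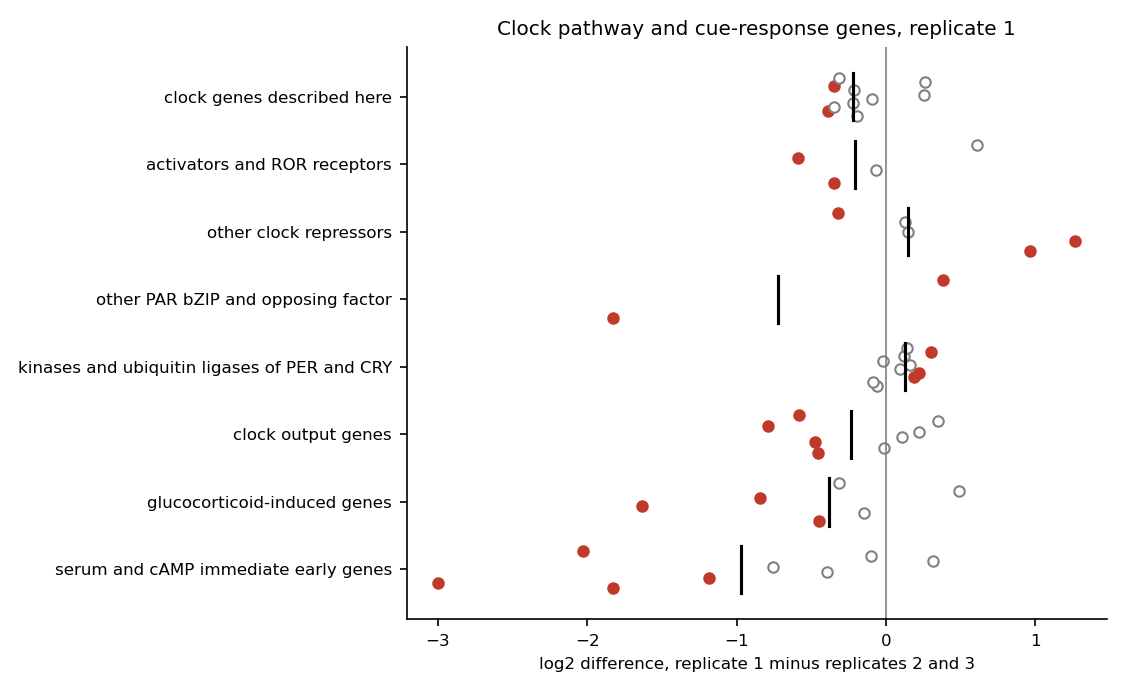
Log2 difference, replicate 1 minus replicates 2 and 3 (horizontal axis), for each tested gene of the 10 clock genes and of 7 related lists (rows). Filled red points passed the edgeR test after adjustment, open grey points did not, and black bars are medians; the 10 clock genes have a median of -0.22, and the immediate early genes one of -0.97.

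With TIM-1, 1 of 6 glucocorticoid-induced genes was called higher and 2 of 8 immediate early genes lower, all with the block, which called 3.22% of all genes higher and 1.79% lower. KLF9, a glucocorticoid-induced gene whose transcript also cycles in many tissues, rose by 1.38 (edgeR adjusted p = 0.000152 blocked, 0.379 unpaired), from 2.00, 2.16 and 1.57 CPM to 6.90, 3.71 and 4.64 CPM. Of the immediate early genes FOSB and ATF3 fell, by 0.62 and 0.43 (edgeR adjusted p = 4.66e-08 and 0.0432 blocked, 0.956 and 0.952 unpaired). With the block of replicate 1 against the others FOSB was still called (edgeR adjusted p = 2.03e-05) and ATF3 was not (0.0627). Both were also lower in replicate 1 (-2.99 and -2.02), and the other 6 of that list did not pass.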

How the data were processed

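RNA sequencing was carried out on 6 UMUC3 libraries, 3 per group, grouped by the treatment given in the labels and numbered as in the titles. The authors deposited raw counts of reads per Ensembl gene, made with HISAT2 2.0.5 and featureCounts 1.5.0-p3 on hg38, with DESeq2 1.16.1 also named, per the submitters' processing notes. No source used here gives the annotation release, the strand setting or the treatment of multi-mapping reads. Symbols were found for 60463 of 60605 identifiers, and positions and lengths come from GENCODE 29 (GRCh38) for 58337. TPM was computed from exon lengths over those genes.

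Genes were kept with filterByExpr (minimum count 10), leaving 14479, and compared in R 4.3.3 with edgeR 4.0.16, using TMM factors, robust dispersions and quasi-likelihood F tests. P-values are two-sided and Benjamini-Hochberg adjusted over all tested genes at 0.05. Standard errors come from the F statistic and 95% intervals from its degrees of freedom. The main test compared groups with no other term. DESeq2 1.42.0 was an alternative. Same-numbered libraries deviated together from their group means, with correlations of 0.53, 0.23 and 0.26 for replicates 1, 2 and 3, all above the limit of 0.1, so blocked values are given. Replicate 2 of one group with replicate 3 of the other gave 0.19 and 0.26, so the data separate replicate 1 only. The pairing comes from the data and not from the labels. Replicate libraries differed beyond sampling noise (chi-square per degree of freedom 3.91 to 24.8), so none was counted as a copy. Every clock gene is named. From each other list up to 3 called genes with the smallest p are named, and genes beyond these were chosen after their values were seen. The scripts were tested on simulated data. There the unpaired test recovered 0% of genes given a log2 change of 0.3 and 1.49% of those given 0.5. The blocked test recovered 26.9% and 46.3%. Changes of this size with TIM-1 could thus go uncalled. Alternatives were the block, a GC correction, upper-quartile scaling, DESeq2, no filter on low counts, and each library or pair left out. Transcript length and the E-box variant were added after seeing the data. The members, lists and the replicate 1 contrast were chosen with earlier results of these data known. Intervals cover only the spread of these libraries.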

Additional observations from a re-analysis of the deposited data

How the results depend on the processing

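The count of clock genes called with TIM-1 stayed at 0 under 14 of 15 alternatives and was 1 with the replicate block and without the replicate 1 pair. The count over all genes was 725 with the replicate block, 1287 with the block and a GC correction, and 510 with a block of replicate 1 against the others. With the block and without the pairs of replicates 1, 2 and 3 it was 838, 209 and 473. DESeq2 gave 30, no filter on low counts 72, and leaving out each library 1 to 9, the 9 without empty-vector replicate 1. Pairing by replicate number thus changed the count over all genes and no clock gene's call with all pairs in. The blocked calls were 466 higher and 259 lower, and with the GC correction 673 higher and 614 lower. In replicate 1 against the others, clock genes called were 4 with the GC correction, 0 within the empty vector, 1 by DESeq2, and 0 to 3 when each library was left out, the 0 without TIM-1 replicate 1. Over all genes that contrast gave 1385 calls within TIM-1 and 1623 within the empty vector, where fewer libraries carry the contrast, and 1378 to 4021 when each library was left out, with 1378 without empty-vector and 1617 without TIM-1 replicate 1. NR1D2 stayed called under 12 of 14 alternatives and PER2 under 6 of 14.

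Signs turned only for values that did not pass. With TIM-1 and a pair left out of the block, PER1 was 0.024 (without replicate 3), CRY1 0.10 (without replicate 1), CRY2 0.0089 and 0.071 (without replicates 2 and 3), NR1D1 0.094 (without replicate 3) and DBP 0.090 (without replicate 2). Upper-quartile normalization gave DBP 0.00088. With each library left out, PER3 ran from -0.25 to 0.0083, CRY1 from -0.085 to 0.11, CRY2 from -0.18 to 0.013, NR1D1 from -0.31 to 0.20 and DBP from -0.16 to 0.086. In the replicate 1 contrast PER1 and CRY2 were 0.16 and 0.19 within TIM-1, and NR1D1 was 0.15 against replicate 2. With each library left out PER1 ran from -0.54 to 0.16, CRY2 from -0.39 to 0.19 and NR1D1 from -0.42 to 0.032. Where no construction is named, the cause was not tested. DBP and NR1D1, with 66 to 126 counts per library, are the members that depth limits most.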

Other observations

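BMAL2, the paralogue of BMAL1, was far more abundant than BMAL1 in these cells when compared per exon length. It stood at 92.6 ± 16.6 TPM (SD, n = 6) against 5.20 ± 1.06 TPM for BMAL1, with ranges of 70.4 to 110 and 3.84 to 6.62 TPM. CLOCK, the usual partner of both, had 11.6 ± 1.58 TPM and its paralogue NPAS2 1.86 ± 0.152 TPM (SD, n = 6). Among the D-box factors, NFIL3 had 45.7 ± 9.63 TPM, above TEF at 12.9, DBP at 2.76 and HLF at 0.522 TPM. All of these use the length of all annotated exons. With the principal transcript BMAL1 had 7.94, TEF 8.70 and DBP 5.10 TPM, and no such value is given for BMAL2, NFIL3 or HLF. These levels are a description of 6 libraries of 1 cell line, and the order was not tested.

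The genes whose pattern over the 6 libraries came closest to a clock gene were found by the distance of centred log2 CPM among 13322 other genes with a mean of at least 1 CPM. The 3 clock genes with the largest spread were taken. For TEF they were MAP1A (0.081), ARFGAP2 (0.11) and EIF5A (0.12), and for BMAL1 TMEM9 (0.099), CTNNBIP1 (0.12) and DOCK4 (0.13). For NR1D1 the closest was EBP (0.21), followed by a pair of genes without a symbol.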
